A study of Mus musculus with 2 samples.

Results

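The transport and differentiation genes of the absorptive colonocyte were followed in single cells of mouse colorectal tumours. They were chosen by symbol, with no use of their measured values: Car1, Car2, Car4, Slc26a3, Aqp8, Krt20, Guca2a, Guca2b, Fabp2 and Cftr, 10 of the 32285 genes listed for both libraries. All 10 were detected. Droplet-based 3′ RNA sequencing gave a library labelled STK25 wKO and a library labelled WT, 1 library per condition. In each, tumours from a group of mice were pooled and dissociated with trypsin, so animals cannot be told apart. According to the study's methods, tumours were induced in both groups with azoxymethane, a carcinogen, and dextran sulphate sodium, which inflames the colon, and STK25, a serine/threonine kinase, was deleted in the whole body of the knockout mice. Sex, strain, age and number of mice were not given in the sources used here. The design text speaks of a sort on an mCherry signal, but no label gives the mCherry status of a library.

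Colonocytes at the surface of the colon take up sodium, chloride and water and secrete bicarbonate. Carbonic anhydrases turn carbon dioxide and water into bicarbonate and protons, the anion exchanger Slc26a3 brings chloride in against bicarbonate, and the aquaporin Aqp8 lets water pass. The peptides guanylin (Guca2a) and uroguanylin (Guca2b) act on guanylate cyclase C, which raises cyclic GMP and through it opens Cftr, the chloride channel of secretion, found mostly lower in the crypt. Krt20, a keratin, and Fabp2, the intestinal fatty acid binding protein, appear as enterocytes and colonocytes mature.

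The 10 genes lie on 6 chromosomes of the mouse genome (GRCm38 coordinates, GENCODE vM21 genes). Guca2a (ENSMUSG00000023247, chr4:119637704-119639471, plus strand) and Guca2b (ENSMUSG00000032978, chr4:119656607-119658954, minus strand) are separated by 17135 bases. Car1 (ENSMUSG00000027556, chr3:14766216-14808368, minus strand) and Car2 (ENSMUSG00000027562, chr3:14886273-14900770, plus strand) are separated by 77904 bases. Fabp2 (ENSMUSG00000023057) lies on the same chromosome at chr3:122895072-122899506. Car4 (ENSMUSG00000000805, chr11:84957786-84966044) and Krt20 (ENSMUSG00000035775, chr11:99428403-99438150) share chromosome 11. Slc26a3 (ENSMUSG00000001225) is at chr12:31390871-31473917, Aqp8 (ENSMUSG00000030762) at chr7:123462291-123468004 and Cftr (ENSMUSG00000041301) at chr6:18170687-18322768.

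The promoters below are those of the genes whose window held the letters of a GATA or HNF1 site, short motifs of intestinal transcription factors. They are RefSeq sequences of GRCm38.p6, 5′ to 3′ on the strand of the gene, from 250 bases before to 50 bases after the start of the gene. A promoter was found for 8 of the 10 genes. Capitals mark the letters AGATAA (or TTATCT on the other strand), as bound by GATA factors, and GTTAAT (or ATTAAC), the short core of the HNF1 site. Guca2a is chr4:119637482-119637781 (plus strand), Guca2b chr4:119658896-119659195 (minus strand), Slc26a3 chr12:31437969-31438268 (plus strand) and Krt20 chr11:99438104-99438403 (minus strand).
Guca2a: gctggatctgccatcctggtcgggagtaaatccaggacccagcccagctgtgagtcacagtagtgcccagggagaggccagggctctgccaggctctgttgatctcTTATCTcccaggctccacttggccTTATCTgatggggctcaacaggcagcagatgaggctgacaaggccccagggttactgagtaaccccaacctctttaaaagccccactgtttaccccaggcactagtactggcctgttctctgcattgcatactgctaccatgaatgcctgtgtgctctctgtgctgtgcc
Guca2b: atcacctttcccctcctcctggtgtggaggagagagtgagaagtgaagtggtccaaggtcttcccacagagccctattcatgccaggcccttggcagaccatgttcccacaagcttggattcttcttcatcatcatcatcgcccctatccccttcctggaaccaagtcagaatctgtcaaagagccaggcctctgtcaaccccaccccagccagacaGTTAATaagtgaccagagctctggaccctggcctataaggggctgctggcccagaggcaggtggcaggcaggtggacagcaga
Slc26a3: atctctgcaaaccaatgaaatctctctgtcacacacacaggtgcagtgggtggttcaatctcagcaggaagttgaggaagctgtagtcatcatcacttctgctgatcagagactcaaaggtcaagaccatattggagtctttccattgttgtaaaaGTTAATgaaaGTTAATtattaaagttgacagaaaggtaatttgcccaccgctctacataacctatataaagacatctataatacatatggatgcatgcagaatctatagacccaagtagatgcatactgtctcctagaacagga
Krt20: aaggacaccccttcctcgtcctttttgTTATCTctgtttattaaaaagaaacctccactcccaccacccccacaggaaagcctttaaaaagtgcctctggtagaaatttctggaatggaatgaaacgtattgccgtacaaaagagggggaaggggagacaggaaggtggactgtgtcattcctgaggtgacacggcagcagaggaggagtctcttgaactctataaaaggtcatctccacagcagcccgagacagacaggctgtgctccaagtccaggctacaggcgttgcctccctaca
The GATA letters were present in 2 of the 8 promoters (Guca2a and Krt20) and in 11.2% of the 32851 mouse promoters in the same table. The HNF1 letters were present in 2 of the 8 (Guca2b and Slc26a3) and in 7.1% of all promoters. The letters TTTATG (or CATAAA), as bound by CDX factors, were in 0 of the 8 and in 11.9% of all promoters. The neighbours Guca2a and Guca2b thus held different motifs in these windows. The Slc26a3 window starts inside the longer GENCODE gene, since the RefSeq start differs. A match of letters is a description and does not show that a factor bound there.

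The library labelled STK25 wKO held 14168 barcodes and 66297749 unique molecular identifiers (UMIs, each a counted RNA molecule), against 12542 barcodes and 38737373 UMIs in the library labelled WT. After filtering, 13883 STK25 wKO cells (median 2091 UMIs) and 12270 WT cells (median 1383 UMIs) remained. Before filtering 230 barcodes occurred in both libraries, and after it 221. Epithelial cells were 4854 cells (35.0%) of the STK25 wKO library and 2637 cells (21.5%) of the WT library, with median depths of 4469 and 4038 UMIs. Among these, 13.8% of STK25 wKO and 1.59% of WT cells lay in the unnamed Apoe Lyz2 cluster and 1.3% and 14.7% in the unnamed Skap1 St6galnac3 cluster, whose 10 leading genes were all higher in other classes, immune genes such as C1qa and Ikzf1 among them. In the clustering of all cells, a further 15.8% of STK25 wKO and 16.9% of WT cells lay in clusters without a marker-based name. These shares do not count the unnamed epithelial clusters. Stk25 itself stood at 157 CPM (UMIs of a gene per 1000000 UMIs counted in the same cells) in STK25 wKO epithelial cells, against 168 CPM in WT epithelial cells. Which exons of Stk25 were deleted could not be read from the labels or methods, so 3′ tags do not check the labels, and every direction below rests on them. With 1 library per condition no test between conditions was possible. Intervals are exact, at the 95% level, and cover counting error only. They are not a measure of the spread between mice.

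Cell classes were named from marker genes, so each name stands for cells with those markers (B cell-like cells and so on). Clusters were formed without the 10 genes, and none of the 10 was a naming marker. Genes that vary with the 10 did help to form and name the clusters. The levels by cluster below are therefore a description only. Of 20 epithelial clusters, 2 met the rule for absorptive colonocytes and together held 516 STK25 wKO cells (10.6% of epithelial cells) and 211 WT cells (8.0%). The Bglap3 Saa1, Krt84 Krt36 and Hoxb8 Ugt2b5 clusters scored highest for another state. They stayed unnamed because their leading genes held more absorptive colonocyte markers than markers of that state. Shares in colonocyte-like cells below leave them out and so depend on this rule. The first, led by Tgm3 and Slc15a1, passed on 10 of 15 colonocyte markers and held 317 STK25 wKO and 170 WT cells, with median depths of 2609 and 2915.5 UMIs. The second, led by Cyp2c55 and Tmigd1, passed on 14 of 15 and held 199 STK25 wKO and 41 WT cells, with median depths of 5411 and 8202 UMIs. The marker Ceacam20 was found in 83.6% of STK25 wKO and 79.4% of WT cells of the first and in 74.4% and 78.0% of those of the second, but in 2.58% of STK25 wKO and 1.57% of WT B cell-like cells. Markers of other cells were present in both clusters. Neutrophil markers summed to 630 CPM in STK25 wKO and 17.2 CPM in WT cells of the Cyp2c55 Tmigd1 cluster, and to 730 and 72.0 CPM in the Tgm3 Slc15a1 cluster. Macrophage markers summed to 197 and 15.5 CPM in the Cyp2c55 Tmigd1 cluster and to 355 and 94.6 CPM in the Tgm3 Slc15a1 cluster, again with STK25 wKO first. The STK25 wKO library also held 1609 neutrophil-like cells, against 225 in the WT library. The part of these markers in the levels below was not tested.

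**Figure D1:**
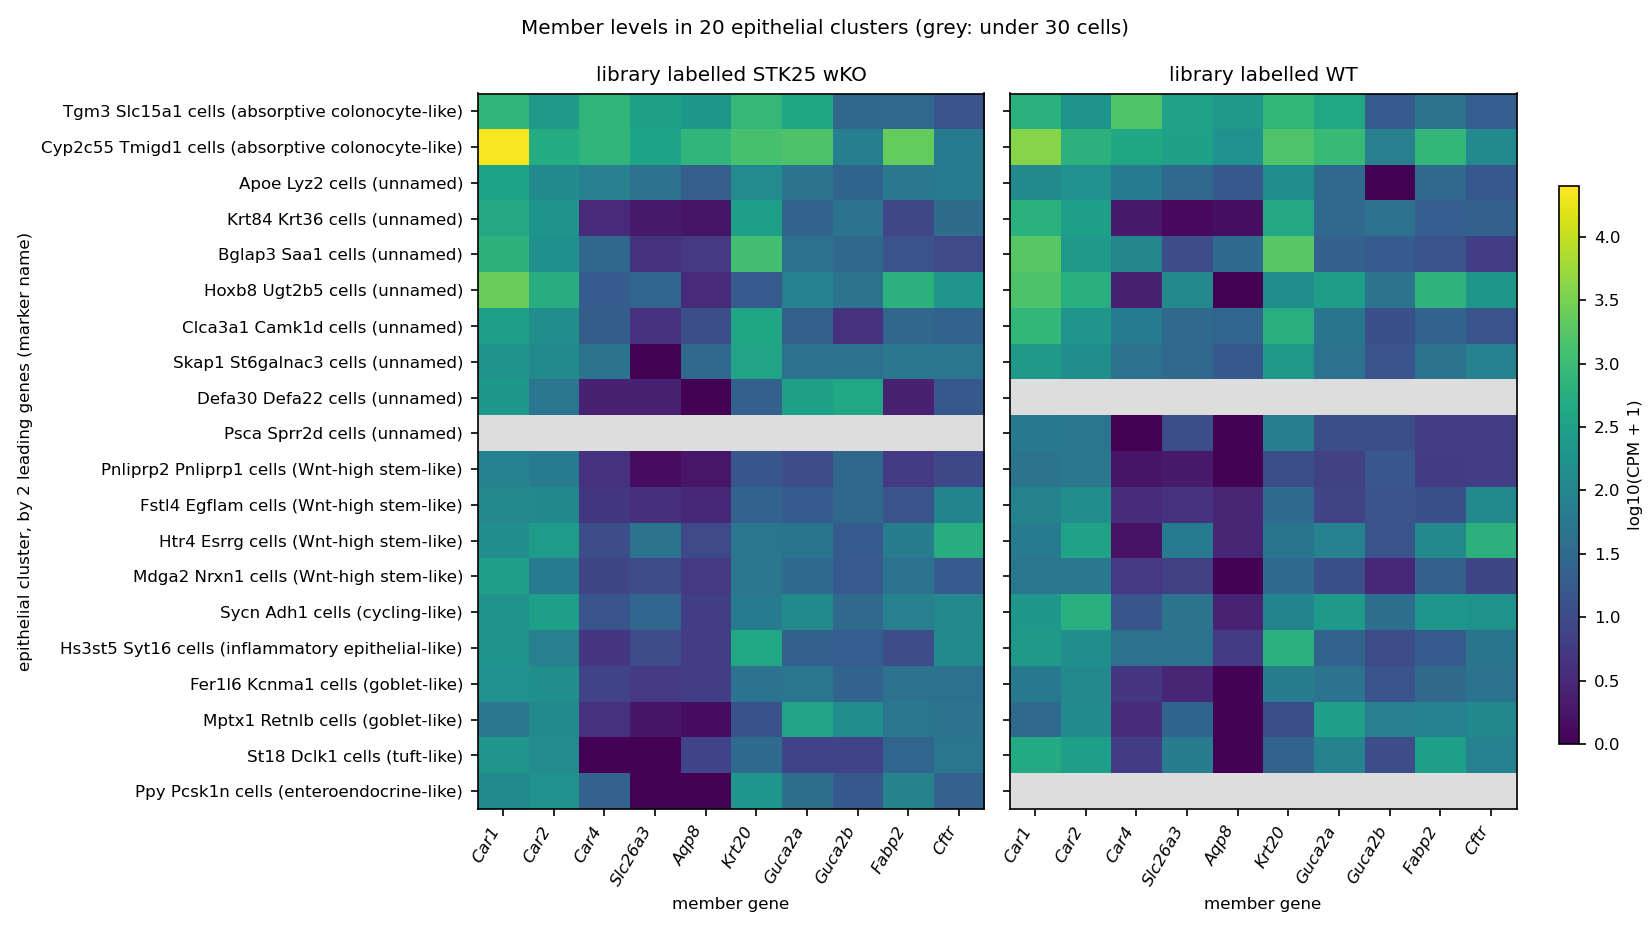
Level of the 10 genes (columns) in the 20 epithelial clusters (rows), STK25 wKO library on the left and WT library on the right; colour is log10(CPM + 1) of summed UMIs and grey marks clusters under 30 cells. The Cyp2c55 Tmigd1 row holds the highest Car1 level in both libraries (22274 CPM in STK25 wKO and 3956 CPM in WT), Cftr is highest in the Htr4 Esrrg row, and Krt20 is high in the Bglap3 Saa1 row as well as in colonocyte-like cells.

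Across all epithelial cells, Car1 and Aqp8 were at least 2-fold higher in the STK25 wKO library, 2 of the 10 genes, and 0 were at least 2-fold lower. Of 14704 genes with at least 50 UMIs over both libraries, 2.11% were at least 2-fold higher and 3.14% at least 2-fold lower. Above a log2 ratio of 0 were 5 of the genes (Car1, Aqp8, Guca2a, Guca2b and Fabp2), and below it the other 5. Their median log2 ratio was 0.14, against −0.14 over all genes counted. Within the colonocyte-like cells, Car1, Aqp8 and Fabp2 were at least 2-fold higher in STK25 wKO, 3 of 10, and 0 were at least 2-fold lower, although Cftr was at least 2-fold lower in 4 of 12 other settings. There, 2.66% of 7592 genes were at least 2-fold higher and 2.75% at least 2-fold lower, and the median was 0.13 for the 10 genes and −0.14 for all.

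**Figure D2:**
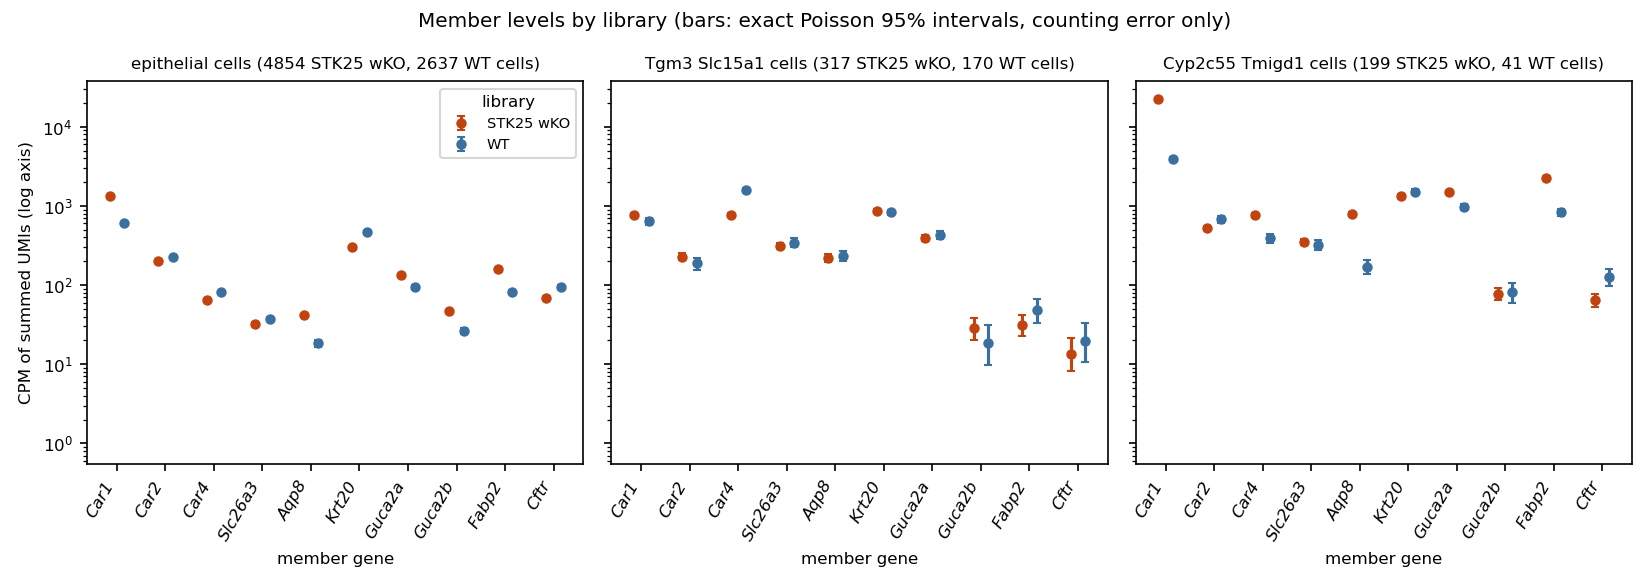
CPM of summed UMIs (log axis) of the 10 genes in all epithelial cells and in both colonocyte-like clusters, STK25 wKO in orange to the left of WT in blue; bars are exact Poisson 95% intervals (counting error only). Car4 is lower in STK25 wKO than in WT in the Tgm3 Slc15a1 cells (763 against 1585 CPM) and higher in the Cyp2c55 Tmigd1 cells (761 against 389 CPM), while Car1, Aqp8 and Fabp2 separate the libraries in the Cyp2c55 Tmigd1 cells.

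Car1, the cytosolic carbonic anhydrase typical of colon, was higher in the STK25 wKO library and highest in Cyp2c55 Tmigd1 cells. In epithelial cells it stood at 1327 CPM (interval 1317 to 1338) in STK25 wKO, against 603 CPM (593 to 613) in WT, a 2.20-fold difference. In colonocyte-like cells it was 12862 CPM in STK25 wKO and 2134 CPM in WT, 6.03-fold higher, a ratio that pools clusters whose shares differ between the libraries. The Cyp2c55 Tmigd1 cluster held 40221 of these 41293 UMIs in STK25 wKO and 2300 of 2753 in WT, at 22274 CPM in STK25 wKO and 3956 CPM in WT (log2 ratio 2.49, interval 2.43 to 2.55). In the Tgm3 Slc15a1 cluster Car1 was 763 CPM in STK25 wKO and 639 CPM in WT (log2 ratio 0.26). Of the Car1 UMIs of the epithelium, 69.2% lay in colonocyte-like cells in STK25 wKO and 20.3% in WT. The second highest cluster also differed between libraries, namely Hoxb8 Ugt2b5 cells in STK25 wKO (2431 CPM) and Bglap3 Saa1 cells in WT (1791 CPM). Among 17 clusters with at least 30 cells in each library, Car1 was at least 2-fold higher in STK25 wKO in 5 and at least 2-fold lower in 3. Of the 5, only the Cyp2c55 Tmigd1 cells stood above the level of STK25 wKO B cell-like cells given further down. The lower ones were the Bglap3 Saa1 cells (709 CPM in STK25 wKO and 1791 CPM in WT), the unnamed Clca3a1 Camk1d cells (298 and 817 CPM) and the tuft-like St18 Dclk1 cells (199 and 486 CPM).

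Per cell, the libraries overlapped in Car1 but the STK25 wKO cells reached much further up. Per 10000 UMIs of a cell of the Cyp2c55 Tmigd1 cluster, Car1 ran from 0 over a median of 29.0 to 831 in STK25 wKO cells, and from 0 over a median of 12.9 to 102 in WT cells. Above the highest WT cell lay 59 of the 199 STK25 wKO cells. The share of cells with at least 1 Car1 UMI was 85.4% in STK25 wKO and 82.9% in WT. The 10 cells richest in Car1 held 44.3% of its UMIs in STK25 wKO and 81.9% in WT, which the counting intervals do not take into account. The 59 cells, chosen by Car1 and described only, were also deep, with a median of 13399 UMIs against 3488 in the other 140 STK25 wKO cells and 8202 in the 41 WT cells. Fabp2 was 3328 CPM in the 59 cells and 1247 CPM in the other STK25 wKO cells, whereas Aqp8 was 496 and 1073 CPM and Car4 536 and 979 CPM. Slc51a, a subunit of the basolateral bile acid transporter and a colonocyte marker, was 145 and 22.8 CPM.

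**Figure D3:**
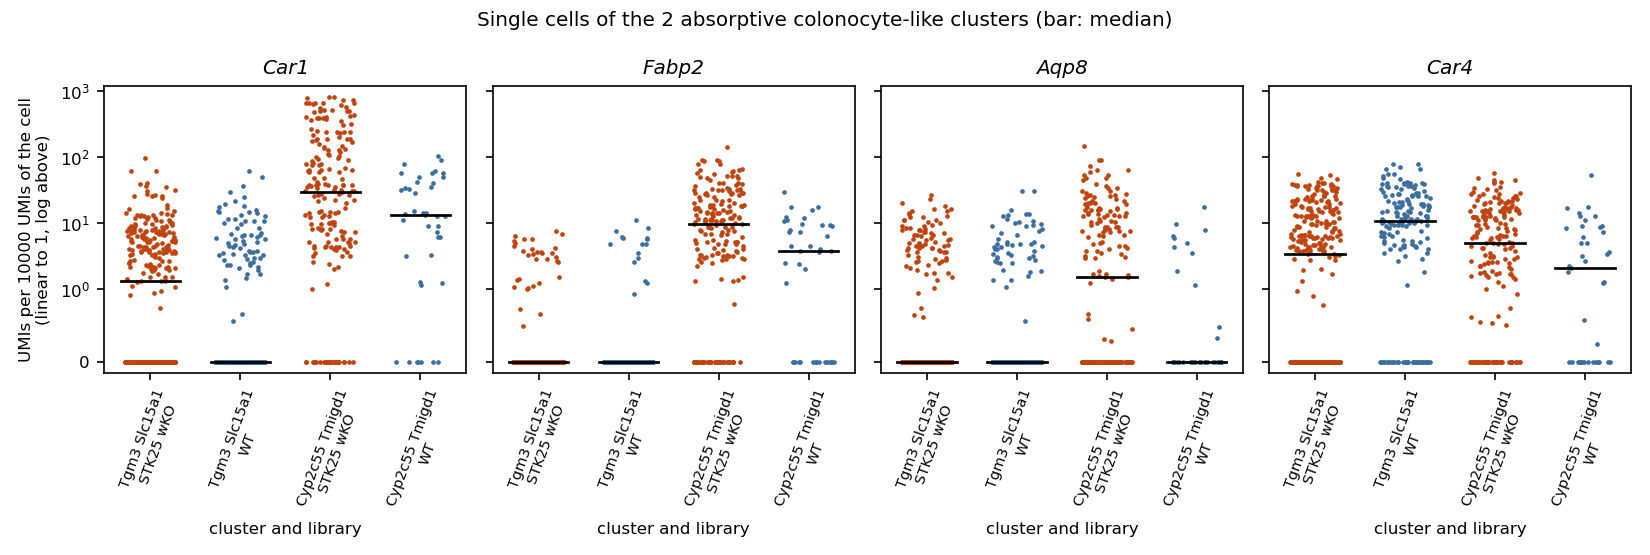
UMIs of Car1, Fabp2, Aqp8 and Car4 per 10000 UMIs of a cell (axis linear to 1 and log above) in the Tgm3 Slc15a1 and Cyp2c55 Tmigd1 clusters, with 1 point per cell, STK25 wKO in orange to the left of WT in blue, and a bar at the median. In Cyp2c55 Tmigd1 cells Car1 has a median of 29.0 in STK25 wKO and 12.9 in WT, and 59 STK25 wKO cells lie above the highest WT cell.

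Car2, the fast cytosolic carbonic anhydrase, differed little. Its epithelial level was 199 CPM in STK25 wKO and 229 CPM in WT (log2 ratio −0.20), and its colonocyte-like level was 398 and 409 CPM (−0.04, interval −0.19 to 0.11). It was spread over many clusters, with only 14.3% of its epithelial UMIs in colonocyte-like cells in STK25 wKO and 10.3% in WT. In STK25 wKO it was highest in Hoxb8 Ugt2b5 cells (560 CPM) and Cyp2c55 Tmigd1 cells (529 CPM), whose intervals overlapped. In WT it was highest in Cyp2c55 Tmigd1 cells (678 CPM) and the cycling-like Sycn Adh1 cells (603 CPM), also with overlapping intervals. It was at least 2-fold lower in STK25 wKO in 2 of the 17 clusters, among them the Sycn Adh1 cells at 299 CPM in STK25 wKO and 603 CPM in WT.

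Car4, the membrane-anchored carbonic anhydrase facing the lumen, had log2 ratios of opposite sign in the colonocyte-like clusters, and the difference between them was not tested. In Tgm3 Slc15a1 cells it was 763 CPM (718 to 810) in STK25 wKO and 1585 CPM (1494 to 1680) in WT, a log2 ratio of −1.05 (−1.18 to −0.93). In Cyp2c55 Tmigd1 cells it was 761 CPM (722 to 803) in STK25 wKO and 389 CPM (340 to 443) in WT, a log2 ratio of 0.97 (0.77 to 1.18). The WT clusters thus stood apart from each other in Car4 while the STK25 wKO clusters did not. Per 10000 UMIs of a Tgm3 Slc15a1 cell, Car4 ran from 0 over a median of 3.39 to 55.1 in STK25 wKO and from 0 over a median of 10.6 to 78.6 in WT. In that cluster 54.3% of STK25 wKO and 77.6% of WT cells had a Car4 UMI, and after each cell was thinned to 1000 UMIs the shares were 37.3% of 314 and 55.0% of 169 cells. Car4 was the only gene of the 10 at least 2-fold lower there, 1 of 9 with enough UMIs beside 2.88% of 5379 genes, and 0 were at least 2-fold higher beside 3.31%. In Cyp2c55 Tmigd1 cells the thinned shares with a Car4 UMI were 46.2% of 199 STK25 wKO cells (39.2 to 53.4) and 32.5% of 40 WT cells (18.6 to 49.1). These intervals overlapped. In all epithelial cells Car4 was 64.9 CPM in STK25 wKO and 80.8 CPM in WT. Over both clusters it was 762 CPM in STK25 wKO and 1046 CPM in WT, a log2 ratio of −0.46 that depended on how the clusters were drawn: at a clustering resolution of 0.5 it was 1.16 and at a resolution of 2 it was 0.51.

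Slc26a3, the chloride and bicarbonate exchanger of the colonocyte's luminal membrane, was level between the libraries in colonocyte-like cells. It stood at 334 CPM (314 to 354) in STK25 wKO and 334 CPM (303 to 367) in WT, with a log2 ratio between −0.16 and 0.16. Both colonocyte-like clusters carried it, at 312 and 351 CPM in STK25 wKO and 343 and 323 CPM in WT for the Tgm3 Slc15a1 and the Cyp2c55 Tmigd1 cells, with overlapping intervals within each library. Colonocyte-like cells held 73.6% of its epithelial UMIs in STK25 wKO and 51.4% in WT. Outside them it was at least 2-fold lower in Hoxb8 Ugt2b5 cells, at 25.8 CPM in STK25 wKO and 115 CPM in WT.

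Aqp8, the water channel, followed the Cyp2c55 Tmigd1 cells of the STK25 wKO library. There it was 790 CPM (750 to 832) in STK25 wKO and 170 CPM (138 to 207) in WT, 4.64-fold higher, whereas in Tgm3 Slc15a1 cells it was 221 and 234 CPM (log2 ratio −0.08, interval −0.36 to 0.20). Per 10000 UMIs of a Cyp2c55 Tmigd1 cell, it ran from 0 over a median of 1.49 to 144 in STK25 wKO and from 0 over a median of 0 to 17.6 in WT, and 35 STK25 wKO cells lay above the highest WT cell. At least 1 Aqp8 UMI was found in 53.8% of STK25 wKO and 29.3% of WT cells. After thinning to 1000 UMIs the shares were 36.7% of 199 and 7.50% of 40 cells. The 10 cells of this cluster richest in Aqp8 held 50.5% of its UMIs in STK25 wKO and 98.0% in WT. Colonocyte-like cells held 92.6% of the epithelial Aqp8 UMIs in STK25 wKO and 64.3% in WT, the highest share of any of the 10 genes in STK25 wKO. In WT, a further part lay in Bglap3 Saa1 cells, which had 4.36 CPM in STK25 wKO and 33.4 CPM in WT. Over all epithelial cells Aqp8 was 41.7 CPM in STK25 wKO and 18.4 CPM in WT, a log2 ratio of 1.19 that fell short of 2-fold, at 0.95, when cells with fewer than 500 genes or over 10% mitochondrial UMIs were left out.

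Krt20, the keratin of differentiated surface cells, was not bound to the clusters named colonocyte-like. In them it was 1128 CPM in STK25 wKO and 1136 CPM in WT (log2 ratio −0.01, interval −0.10 to 0.08), and other ways of drawing the clusters gave up to 0.83. They held only 26.5% of its epithelial UMIs in STK25 wKO and 14.1% in WT. The largest part, 40.2% in STK25 wKO and 55.0% in WT, lay in the Bglap3 Saa1 cluster (298 STK25 wKO and 178 WT cells). This cluster scored highest for another state. It stayed unnamed because colonocyte markers, Saa1 and Clca4b, outnumbered markers of that state among its leading genes. That cluster had 1196 CPM (1165 to 1228) in STK25 wKO and 1799 CPM (1752 to 1846) in WT, and Krt20 was found in 95% and 98.3% of its cells. In WT it was the cluster with the highest Krt20 level, and in STK25 wKO the Cyp2c55 Tmigd1 cluster was, at 1341 CPM. Over all epithelial cells Krt20 was 304 CPM in STK25 wKO and 463 CPM in WT, the lowest log2 ratio of the 10 at −0.61. In Hoxb8 Ugt2b5 cells it was 16.8 CPM in STK25 wKO and 152 CPM in WT.

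The ligands of guanylate cyclase C had their highest levels in different clusters. Guca2a, guanylin, was highest in Cyp2c55 Tmigd1 cells, at 1491 CPM (1436 to 1549) in STK25 wKO and 974 CPM (895 to 1057) in WT, 1.53-fold. It was 389 and 426 CPM in Tgm3 Slc15a1 cells and 372 and 303 CPM in the goblet-like Mptx1 Retnlb cells. Colonocyte-like cells held 54.0% of its epithelial UMIs in STK25 wKO and 40.8% in WT. Guca2b, uroguanylin, was highest in the unnamed Defa30 Defa22 cluster, whose leading genes are Paneth-type alpha-defensins, at 442 CPM (393 to 496; 48 cells) in STK25 wKO and 260 CPM (192 to 344; 21 cells) in WT. The Mptx1 Retnlb goblet-like cells had 142 CPM in STK25 wKO and 81.0 CPM in WT, where they did not differ from Cyp2c55 Tmigd1 cells (80.8 CPM) beyond counting error, and their median depth was 12626 UMIs in STK25 wKO and 1361 UMIs in WT. In colonocyte-like cells Guca2b was 56.1 CPM in STK25 wKO and 46.5 CPM in WT (log2 ratio 0.27, interval −0.16 to 0.72), and these cells held 8.53% and 10.1% of its epithelial UMIs. In all epithelial cells Guca2b was 46.9 CPM in STK25 wKO and 26.5 CPM in WT (1.77-fold), and Guca2a 133 and 94.8 CPM (1.41-fold).

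Fabp2 was carried by Cyp2c55 Tmigd1 and Hoxb8 Ugt2b5 cells. Its CPM in Tgm3 Slc15a1 cells was no higher than in the shallower B cell-like cells. In the Cyp2c55 Tmigd1 cluster it was 2267 CPM (2198 to 2337) in STK25 wKO and 827 CPM (755 to 905) in WT, 2.74-fold higher. In the Hoxb8 Ugt2b5 cluster it was 660 CPM in STK25 wKO and 735 CPM in WT (log2 ratio −0.16), and in the Tgm3 Slc15a1 cluster 31.3 and 48.0 CPM, below the 53.6 and 50.5 CPM found in B cell-like cells of the same libraries. Both colonocyte-like clusters carried Car4, Slc26a3 and Krt20. Fabp2 was among the genes whose level separated them in both libraries, as were Car1 and Guca2a. Per 10000 UMIs of a Cyp2c55 Tmigd1 cell, Fabp2 ran from 0 over a median of 9.64 to 142 in STK25 wKO and from 0 over a median of 3.69 to 29.4 in WT. Over 15 clusters with enough UMIs, Fabp2 was at least 2-fold higher in STK25 wKO in 2 and at least 2-fold lower in 3. The lower ones were the Sycn Adh1 cells (81.3 CPM in STK25 wKO and 208 CPM in WT), the Krt84 Krt36 cells (7.64 and 19.6 CPM, both under the B cell-like level) and the 41 STK25 wKO and 32 WT tuft-like cells (26.6 and 304 CPM). The share of Cyp2c55 Tmigd1 cells with a Fabp2 UMI was 80.4% in STK25 wKO and 63.4% in WT. After thinning to 1000 UMIs it was 54.8% of 199 cells (47.6 to 61.8) and 35.0% of 40 cells (20.6 to 51.7), with overlapping intervals. The 10 cells of this cluster richest in Fabp2 held 33.1% of its UMIs in STK25 wKO and 81.9% in WT. In all epithelial cells the level was 158 CPM in STK25 wKO and 82.6 CPM in WT (1.91-fold). Over both colonocyte-like clusters, whose shares differ between the libraries, it was 1289 CPM in STK25 wKO and 399 CPM in WT (3.23-fold). This log2 ratio of 1.69 was 0.77 at a clustering resolution of 0.5.

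Cftr, the chloride channel, had its place outside the colonocyte-like cells. The Htr4 Esrrg cluster, Wnt-high stem-like by 4 of 12 markers, had 561 CPM (521 to 603) in STK25 wKO and 684 CPM (645 to 725) in WT, and Cftr was found in 69.5% of its 305 STK25 wKO cells and 79.4% of its 282 WT cells. It held 24.0% of the epithelial Cftr UMIs in STK25 wKO and 52.5% in WT. Hoxb8 Ugt2b5 cells followed at 198 and 209 CPM. In colonocyte-like cells Cftr was 42.0 CPM in STK25 wKO and 67.4 CPM in WT (log2 ratio −0.68, interval −1.08 to −0.28; −1.33 to −0.10 over other settings), with 4.38% and 4.08% of its epithelial UMIs. In all epithelial cells it was 68.6 CPM in STK25 wKO and 95 CPM in WT. Over 13 clusters with enough UMIs Cftr was at least 2-fold lower in STK25 wKO in 1, the goblet-like Mptx1 Retnlb cells, at 46.2 CPM in STK25 wKO and 110 CPM in WT, which differ in depth as given above. It was at least 2-fold higher in 2, the inflammatory epithelial-like Hs3st5 Syt16 cells (126 and 51.1 CPM) and the Apoe Lyz2 cells, led by macrophage genes, where WT had 1 UMI.

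The Hoxb8 Ugt2b5 cluster, 199 STK25 wKO and 37 WT cells without a marker-based name, carried Car1, Car2, Fabp2 and Cftr at levels among the highest of the epithelium, and differed between the libraries in other genes of the set. Krt20, Slc26a3 and Guca2a were at least 2-fold lower there in STK25 wKO, Guca2a at 87.6 CPM in STK25 wKO and 295 CPM in WT (log2 ratio −1.75). The share of all genes past 2-fold was not counted in this cluster, so these values are a description only. Of the 37 WT cells, the 10 richest in each gene held 94.2% of the Krt20, 68.4% of the Slc26a3 and 82.7% of the Guca2a UMIs. Car2, Fabp2, Guca2b and Cftr were within a log2 ratio of −0.16 to 0.03. Car4 had 53 UMIs in STK25 wKO and 1 in WT, in CPM no higher than in the shallower B cell-like cells of either library.

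In the Cyp2c55 Tmigd1 cluster as a whole, Car1, Aqp8 and Fabp2 were at least 2-fold higher in STK25 wKO, 3 of 10 beside 3.22% of 5657 genes, and 0 of 10 were at least 2-fold lower beside 4.60%. The 14 colonocyte markers with enough UMIs in this cluster had log2 ratios above 0 for 8 and below 0 for 6, with a median of 0.08. The highest was Slc51a at 4.0, found in 27.1% of STK25 wKO and 4.88% of WT cells. In the Tgm3 Slc15a1 cluster, 5 markers lay above 0 and 5 below, with a median of 0.03. The WT side of the Cyp2c55 Tmigd1 cluster rests on 41 cells. Within this cluster several pairs of the genes varied together from cell to cell, given here as Spearman correlations over 199 STK25 wKO and 41 WT cells that share a library and differ in depth. Car4 and Aqp8 had 0.71 in STK25 wKO and 0.56 in WT, Car1 and Fabp2 0.61 and 0.41, and Guca2a and Fabp2 0.57 and 0.52. In STK25 wKO, Car1 and Car2 had 0.44, Krt20 and Guca2a 0.43 and Car4 and Guca2a 0.38, so the pairs were not separate from each other. Car1 and Car4 had −0.17 and 0.03, and Car1 and Aqp8 −0.26 and 0.15. Car1 also followed the depth of the cell (0.70 and 0.65), as did Fabp2 (0.52 and 0.53), whereas Car4 did not (−0.16 and −0.12).

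The 10 genes were also counted in cells that should lack most of them. In B cell-like cells (659 STK25 wKO and 1651 WT, median depths 1220 and 943 UMIs), Car1 was 398 CPM in STK25 wKO and 161 CPM in WT, and 38.1% of STK25 wKO and 15.5% of WT B cell-like cells had a Car1 UMI. With each cell thinned to 1000 UMIs and shallower cells left out, 43.5% of 513 STK25 wKO and 31.1% of 209 WT colonocyte-like cells had a Car1 UMI, beside 30.2% of 444 STK25 wKO and 12.7% of 717 WT B cell-like cells. The thinned shares of B cell-like cells were 2.03% in STK25 wKO and 1.39% in WT for Car4, 0.225% and 0.279% for Aqp8, and 4.05% and 4.32% for Fabp2. The log2 ratio of Car1 was 1.3 in B cell-like cells and 1.22 in T or NK cell-like cells, beside 1.14 in epithelial cells. The Wnt-high, goblet-like and cycling-like STK25 wKO clusters lay below the 398 CPM of Car1 in STK25 wKO B cell-like cells. Some of these clusters are far deeper, such as the STK25 wKO Sycn Adh1 cells at a median of 12132 UMIs. CPM alone therefore does not tell Car1 expression from background in them. The epithelial level lay above the B cell level by 3.34-fold in STK25 wKO and 3.74-fold in WT for Car1, 4.49-fold and 6.2-fold for Krt20, and 1.58-fold and 1.66-fold for Car2. For Aqp8, B cell-like cells held 7 UMIs in STK25 wKO and 3 in WT. Car1 made up 55.9% of the UMIs of the 10 genes in STK25 wKO epithelial cells and 34.9% in WT ones, and 51.1% and 29.1% of those in B cell-like cells. With the B cell level subtracted, the epithelial log2 ratio of Car1 was 1.07.

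Car4 was also found in endothelial-like cells. It was 86.3 CPM (75.1 to 98.7) in STK25 wKO and 52.4 CPM (40.4 to 66.8) in WT, the highest in both libraries of the 9 named non-epithelial classes with at least 30 cells in each. Among endothelial-like cells with no Slc26a3 or Aqp8 UMI, it was 75 CPM in 804 STK25 wKO cells and 52.4 CPM in 454 WT cells. B cell-like cells chosen in the same way had 20.1 and 16.7 CPM, and fibroblast-like cells 9.94 and 4.36 CPM. Few cells carried it, since 8.96% of these STK25 wKO and 6.83% of these WT endothelial-like cells had a Car4 UMI. Among them, the Mmrn1 Ccl21a cluster, led by lymphatic genes, had 101 CPM in STK25 wKO and 81.6 CPM in WT, and the Selp Adgrl4 cluster had 63.4 CPM (51.8 to 76.8) in STK25 wKO and 30.5 CPM (18.9 to 46.6) in WT. The WT interval of the Selp Adgrl4 cells overlapped that of WT B cell-like cells (11.3 to 23.9). In the Mmrn1 Ccl21a cluster, 5 cells held 79.7% of the Car4 UMIs in STK25 wKO and 66.7% in WT.

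**Figure D4:**
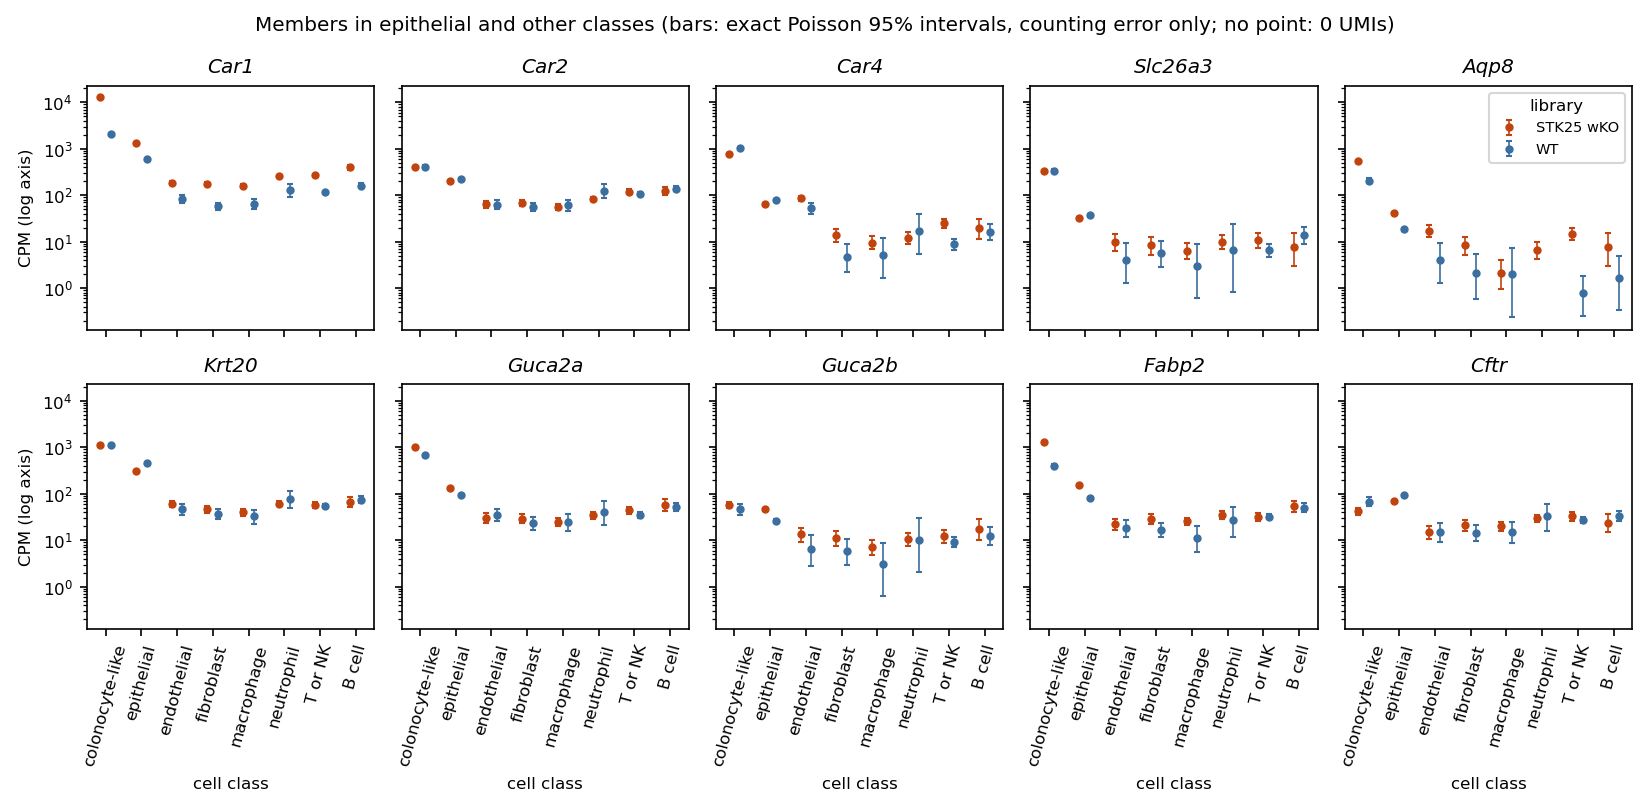
CPM of summed UMIs (log axis) of each of the 10 genes in colonocyte-like cells, all epithelial cells and 6 other classes, STK25 wKO in orange to the left of WT in blue; bars are exact Poisson 95% intervals (counting error only) and a class with 0 UMIs has no point. Car1 has a higher STK25 wKO level in every class drawn, including B cell-like cells (398 against 161 CPM), and Car4 is higher in endothelial-like cells than in the other non-epithelial classes.

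The order of the levels over 19 STK25 wKO and 18 WT clusters with at least 30 cells summed up these places. For 6 genes (Car1, Car4, Slc26a3, Aqp8, Guca2a and Fabp2) a colonocyte-like cluster was highest in both libraries, a count that was 4 to 8 over 11 other settings. Measured as Pearson correlation of log2(CPM + 1) over the 37 pairs of library and cluster, which share libraries and are not independent, Car4 and Aqp8 were the most alike pair at 0.88, Car2 and Fabp2 had 0.80, and Guca2a and Guca2b 0.59. Krt20 and Cftr were the least alike at −0.17. Among 11229 other genes, the profiles closest to Car1 were those of Higd1a (0.83) and the antimicrobial lectin Reg3b (0.82). Ethe1 was close to Car2 (0.87), and Car4 and Aqp8 were each closest to Cyp2d9 (0.87 and 0.90) and the kinase Sgk2 (0.87 and 0.82). Slc26a3 was closest to Slc51b, the other subunit of the bile acid transporter (0.83), and Hsd3b2 (0.81), and Krt20 to Ttc22 (0.91) and Clca4b (0.90). For Guca2a these were Sult1d1 (0.81) and Cmpk1 (0.78), for Guca2b Tmed10 (0.82) and Surf4 (0.79), for Fabp2 Apol10a (0.90) and Hao2 (0.87), and for Cftr L1cam (0.82) and Map3k21 (0.82).

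Other genes of the same pathways were counted from 6 lists that hold none of the 10. Of 94 listed genes, 80 had at least 50 epithelial UMIs, 5 of them at least 2-fold higher in STK25 wKO and 1 at least 2-fold lower, beside 2.11% higher and 3.14% lower of all genes counted, with 22 above 0, 58 below and a median log2 ratio of −0.19. Among the other carbonic anhydrases, 1 of 7 was at least 2-fold higher (Car3), and Car9, a hypoxia-induced membrane form, was 36.0 CPM in STK25 wKO and 50.8 CPM in WT, Car13 20.2 and 21.7 CPM and Car8 13.0 and 12.3 CPM. In the guanylate cyclase C pathway 0 of 7 passed in either direction. The receptor Gucy2c was 62.6 CPM in STK25 wKO and 77.6 CPM in WT, the adenylate cyclase Adcy6 68.7 and 94.9 CPM, and the scaffold Slc9a3r1 78.0 and 80.0 CPM. The ligands of this receptor, Guca2a and Guca2b, had log2 ratios of 0.49 and 0.82 while the receptor itself had −0.31.

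Of 19 genes of sodium, chloride, bicarbonate and water absorption, 2 were at least 2-fold higher in STK25 wKO and 0 lower. These were Scnn1g, a subunit of the epithelial sodium channel (log2 ratio 1.28), and Fxyd4, a regulator of the sodium pump, at 168 CPM in STK25 wKO and 51.0 CPM in WT (1.72). Atp1b1, the beta subunit of the pump, was 843 CPM in STK25 wKO and 810.5 CPM in WT, and Fxyd3 was 391 and 273 CPM. Of 15 genes of chloride and bicarbonate secretion, Best2, a bicarbonate channel of goblet cells, was higher at 10.8 CPM in STK25 wKO and 4.19 CPM in WT, and Chrm3, the muscarinic receptor, was lower at 6.27 and 23.2 CPM. Slc12a2, the basolateral chloride importer, was 255 and 246 CPM, Ano1 153 and 153 CPM and Kcne3 133 and 106 CPM. Of 12 brush border genes 0 passed in either direction, with Ezr at 323 CPM in STK25 wKO and 334 CPM in WT, Vil1 at 173 and 200 CPM and Myo1a at 106 and 121 CPM. Of 20 intestinal transcription factors Atoh1, the secretory lineage factor, was higher at 17.8 and 8.64 CPM, while Klf5 was 504 and 441 CPM, Elf3 446 and 465 CPM and the mineralocorticoid receptor Nr3c2 266 and 411 CPM.

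**Figure D5:**
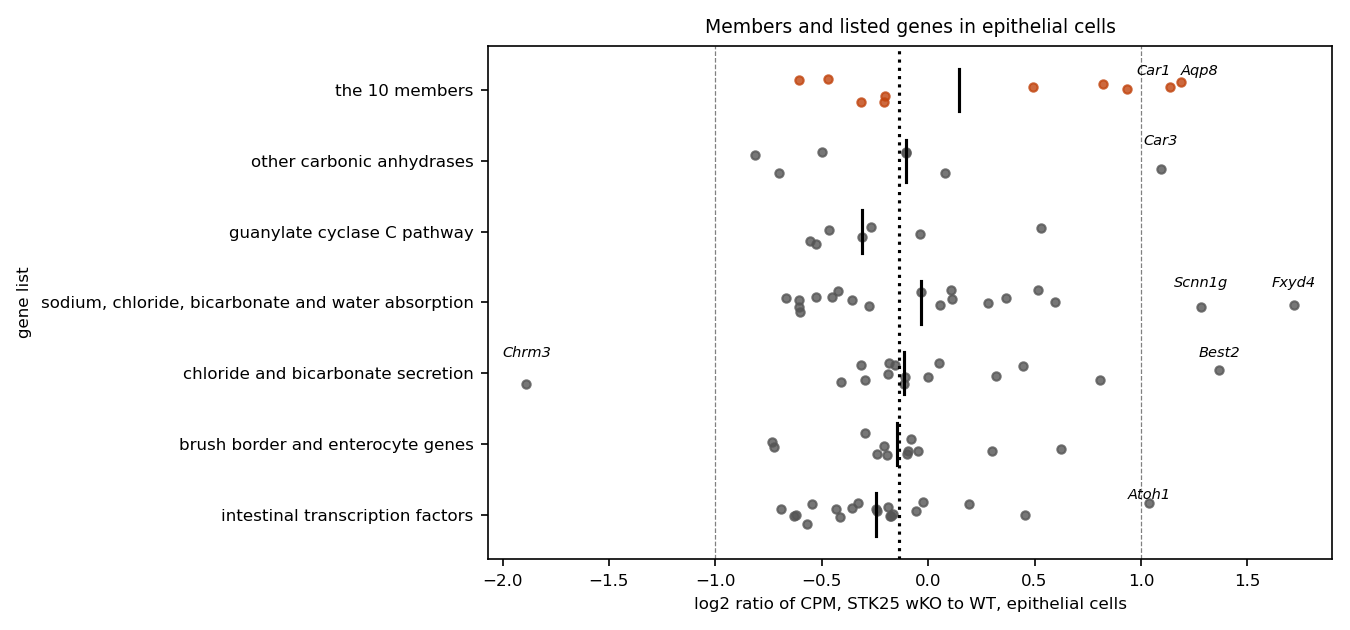
Log2 ratio of CPM, STK25 wKO to WT, in epithelial cells for the 10 genes (orange) and 6 lists of related genes (grey), with 1 point per gene; bars are medians, the dotted line is the median of all genes counted (−0.14) and dashed lines mark 2-fold. The 10 genes have a median of 0.14, with Car1 and Aqp8 past 2-fold, and the guanylate cyclase C pathway has no gene past 2-fold.

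Within colonocyte-like cells, 63 of the listed genes had at least 50 UMIs, 2 of them at least 2-fold higher in STK25 wKO and 3 at least 2-fold lower, beside 2.66% and 2.75% of all genes counted, with a median log2 ratio of −0.14, the same as over all genes. Counts this near the background are no result about the lists. The higher ones were Fxyd4, at 82.6 CPM in STK25 wKO and 15.5 CPM in WT, and Prkg2, the cyclic GMP-dependent kinase, at 25.5 and 10.1 CPM. The lower ones were Atp12a, the colonic proton pump, at 104 CPM in STK25 wKO and 220 CPM in WT, the water channel Aqp4 at 119 and 240 CPM, and the proton exchanger Slc9a8 at 12.5 and 27.1 CPM. Slc9a8 was at or below its level in B cell-like cells (28.4 and 40.6 CPM). The colonocyte-like clusters differ in share between the libraries, since Cyp2c55 Tmigd1 cells were 199 of 516 STK25 wKO and 41 of 211 WT cells. Within Cyp2c55 Tmigd1 cells, Aqp4 was 199.9 CPM in STK25 wKO and 476 CPM in WT. Within Tgm3 Slc15a1 cells, Fxyd4 was 174 and 28.2 CPM, and Atp12a was 229 and 401 CPM, short of 2-fold.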

How the data were processed

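Raw counts were used as the authors deposited them, a gene-by-barcode matrix of UMI counts per library. The matrix headers name Cell Ranger 7.1.0, and the labels name the mouse build mm10 and Seurat, the R package that the study's methods give for data analysis. The 10x 3′ kit version was not given in the sources used here, and nothing says that doublets were removed before deposit. Barcodes below 200 detected genes or above 25% mitochondrial UMIs were dropped, leaving 13883 STK25 wKO and 12270 WT cells. Doublets were kept, and removal of 1542 STK25 wKO and 1204 WT barcodes at the expected rate was tried as an alternative. Both libraries were normalised per cell, joined on 2000 variable genes without the 10 genes, reduced to 30 principal components and clustered with Leiden at resolution 1 on 20 neighbours (Python 3.11.15, scanpy 1.11.5, leidenalg 0.10.2, numpy 2.4.6, scipy 1.17.1, pandas 2.3.3). No batch correction was made. Clusters of all cells were named from 16 marker sets and epithelial cells were clustered again and named from 7, where at least 3 markers were present in 10% of cells and 5 percentage points above the median cluster. A cluster led by genes of another class or state, by alpha-defensins or of low depth stayed unnamed. The conditions on leading genes of other classes and on alpha-defensins were set after the clusters were seen, and rebuilt names may differ from the study's own.

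UMIs were summed per library and group of cells and given as CPM with exact Poisson intervals. Ratios have exact conditional binomial intervals, and shares of cells Clopper-Pearson intervals, all at 95% and covering counting error only. A gene was counted as higher or lower at a 2-fold ratio with at least 50 UMIs over both libraries. No p-value was computed, since each condition has 1 library. The recovery of known folds was tested on simulated counts. The text names the 10 genes, the 3 genes of each list with the most epithelial UMIs, the 2 closest profiles per gene (at least 200 epithelial UMIs) and Stk25. Listed genes past 2-fold, Slc51a and Ceacam20 were added once their values had been seen. Not every gene picked by this rule is reported here. The genes, lists and markers were chosen with earlier results of these data known. Alternatives covered filters, clustering, scaling, doublets, thinning and background. Promoters were read from a RefSeq table of GRCm38.p6.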

Additional observations from a re-analysis of the deposited data

Results flagged for a closer look

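Car4 differed between the libraries in opposite directions in the colonocyte-like clusters. Its log2 ratio of STK25 wKO to WT was −1.05 in Tgm3 Slc15a1 cells, at 763 CPM in STK25 wKO and 1585 CPM in WT, and 0.97 in Cyp2c55 Tmigd1 cells, at 761 CPM in STK25 wKO and 389 CPM in WT. With 1 library per condition the difference between the clusters was not tested. The WT value of the Cyp2c55 Tmigd1 cells rests on 41 cells, 10 of which held 81.9% of its 226 Car4 UMIs.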

How the results depend on the processing

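No paired analysis was possible because each condition has 1 library, and for the same reason no replicate could be left out. Of 278 values of single genes under other settings, 251 kept the sign of the reported value. In epithelial cells, the number of genes past 2-fold (2 as reported) was 1 when cells under 500 genes or over 10% mitochondrial UMIs were left out, 4 when cells were thinned to 1000 UMIs and 4 when the CPM of B cell-like cells was subtracted. The median log2 ratio there (0.14 as reported) was 0.28 after scaling to a median of 0, −0.076 with equal weight per cluster and 0.43 after that subtraction, which also raised the listed genes past 2-fold from 6 to 11. In colonocyte-like cells, 5 genes in place of 3 passed 2-fold when the 10 genes were kept among the variable genes. Their median (0.13 as reported) was 0.36 with the stricter cell filter, 0.28 at resolution 0.5, 0.72 at resolution 2, 0.83 without doublets, 0.82 with the 10 genes kept for clustering, 0.29 as a mean over cells and 0.46 after thinning. Car1 stayed at least 2-fold higher in 15 of 15 settings in epithelial cells (1.07 to 1.47) and in 13 of 13 in colonocyte-like cells (2.40 to 3.44). Aqp8 did so in 14 of 15 (0.95 to 1.61) and 13 of 13 (1.33 to 2.48), and Fabp2 in 4 of 15 (0.44 to 1.70) and 12 of 13 (0.77 to 2.32). Car4 kept its sign in colonocyte-like cells in 8 of 13 settings (−0.64 to 1.16) and Krt20 in 4 of 13 (−0.04 to 0.83), and Cftr was at least 2-fold lower there in 4 of 12 (−1.33 to −0.10). The B cell subtraction and the settings that left out shared barcodes, clusters led by other classes' genes, or counted unnamed clusters as epithelial were chosen after seeing the data. The colonocyte-like cells numbered 486 to 1030 in STK25 wKO and 208 to 530 in WT over these settings. A few deep cells hold much of a gene's UMIs, so counting intervals understate the spread.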
